A study of Mus musculus with 3 samples.

Results

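The aquaporin genes of adult lung endothelial cells (ECs) were examined as a family of 10 members, chosen by gene symbol with earlier results of these data known: *Aqp1*, *Aqp2*, *Aqp3*, *Aqp4*, *Aqp5*, *Aqp6*, *Aqp7*, *Aqp8*, *Aqp9* and *Aqp11*. All 10 were found among the 24346 gene symbols of the expression table. The ECs came from lungs of wild type male C57BL/6J mice aged 6 to 8 weeks, were freshly isolated and were sorted as VE-cadherin and CD31 positive, CD45 negative and podoplanin negative cells. They gave 3 RNA-seq libraries, S38, S44 and S52, all of 1 group, so no condition could be compared with another. The labels do not say how many mice stand behind a library, and the spread between libraries may be partly technical. Values are FPKM, that is fragments scaled to gene length and to library size, which allows levels of different genes to be set side by side. Library depth was estimated from the low values at about 37700000, 38800000 and 34700000 fragments (S38, S44, S52). Genes whose mean over the 3 libraries reached 1 FPKM are called detected.

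Aquaporins are membrane channels that let water, and in some members glycerol and other small solutes, cross a cell membrane along an osmotic or concentration gradient. The classical water channels include *Aqp1*, *Aqp2*, *Aqp4*, *Aqp5*, *Aqp6* and *Aqp8*, the aquaglyceroporins include *Aqp3*, *Aqp7* and *Aqp9*, and *Aqp11* belongs to a more distant, intracellular branch. In the lung, *Aqp1* is known as the water channel of the microvascular endothelium and *Aqp5* as that of the apical membrane of the alveolar and airway epithelium.

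The pore of an aquaporin is built around a repeated asparagine-proline-alanine motif, and the codons of this motif are shown because they are what members of the family share in sequence, with *Aqp7* and *Aqp11* departing from them. The letters AANCCNGCN, where N is any base, were searched in frame on the coding strand of the longest GENCODE M21 coding sequence of 9 members. *Aqp4* was not included. The search found 2 matches in 7 members, 1 match in *Aqp11* and 0 in *Aqp7*. Of 21559 coding sequences searched in the same way, 14.5% held 1 or more matches and 2.31% held 2 or more. A match describes the letters only. The 4 windows below belong to *Aqp1* and *Aqp5*, the highest members in these libraries, and the fifth to *Aqp11*. Capitals mark the match, and positions count from the first base of the start codon.
Aqp1, bases 226 to 234: gctcacctcAACCCTGCGgtcacactg
Aqp1, bases 574 to 582: tgcggtatcAACCCTGCCcggtcattt
Aqp5, bases 205 to 213: ggccacatcAATCCGGCCattactctg
Aqp5, bases 553 to 561: tgttccatgAACCCAGCCcgatctttc
Aqp11, bases 646 to 654: gcattgtttAACCCAGCGctggcactt

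Reads of the members could be told apart from each other. The longest run of bases shared by transcripts of any pair of members ranged from 10 to 23, against a read length of 51 bp. *Aqp1*, *Aqp2*, *Aqp5*, *Aqp6*, *Aqp8* and *Aqp9* shared 0 windows of read length with any other annotated gene, counting the windows of all their annotated transcripts. *Aqp7* shared 103 of its 2768 windows with other genes, *Aqp11* 19 of 9446 and *Aqp3* 1 of 1778.

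One member dominated the family. *Aqp1* was detected together with *Aqp5* and *Aqp11*, and the other 7 members had means below 1 FPKM. So 3 of 10 members were detected, whereas 48.3% of all genes of the table and 54.7% of its protein-coding genes were detected. The same 3 members reached 1 FPKM in every library, as did 43.9% of all genes. Of genes whose mean reached 0.1 FPKM, 77.7% were detected, and 3 of the 4 members with such a mean were. *Aqp2* and *Aqp8* were listed at 0 in every library, as were 29.5% of all genes. The median of the 10 means was 0.0376 FPKM, against 0.784 FPKM over all genes. *Aqp1* held 99.2% of the summed FPKM of the family in S38, 99.5% in S44 and 99.7% in S52, or 99.5% ± 0.256 (SD, n = 3 libraries).

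**Figure D1:**
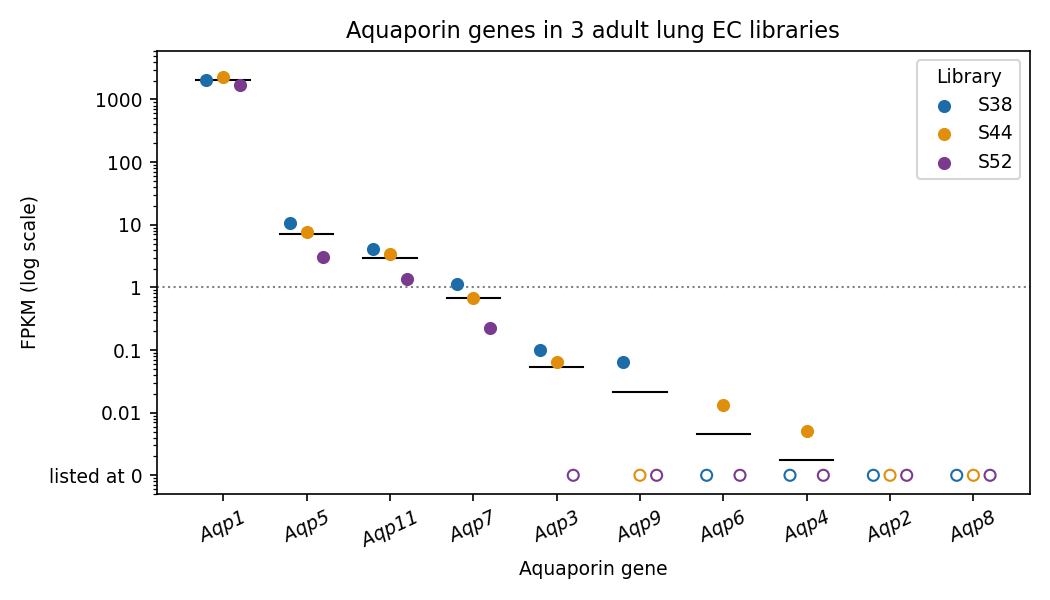
FPKM (log axis) of the 10 aquaporin genes in libraries S38, S44 and S52. Filled points are single libraries, open points are values of 0 placed at the foot of the axis, short bars are means over the 3 libraries and the dotted line marks 1 FPKM. *Aqp1* lies at 1734 to 2301 FPKM, and the 3 next members lie below 11 FPKM, each lowest in S52.

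*Aqp1*, which lets water cross the capillary wall and the red cell membrane, was among the most abundant transcripts of the lung EC fraction. The gene spans bases 55336432 to 55348555 of chromosome 6 (GRCm38/mm10, plus strand) with a single basic transcript of 2627 bases. Its values were 2019, 2301 and 1734 FPKM (S38, S44, S52), with a mean of 2018 ± 284 FPKM (SD, n = 3). The level was highest in S44 and lowest in S52, with a ratio of 1.33 between them. At the estimated depth these values stand for about 189000, 220000 and 146000 fragments. Counting error was then under 0.3% of the level in each library, against 14.1% for the SD between libraries. Its mean ranked 43 among all 24346 genes of the table and 12 among the 19835 protein-coding genes. Among protein-coding genes its rank was 11, 9 and 17 (S38, S44, S52).

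**Figure D2:**
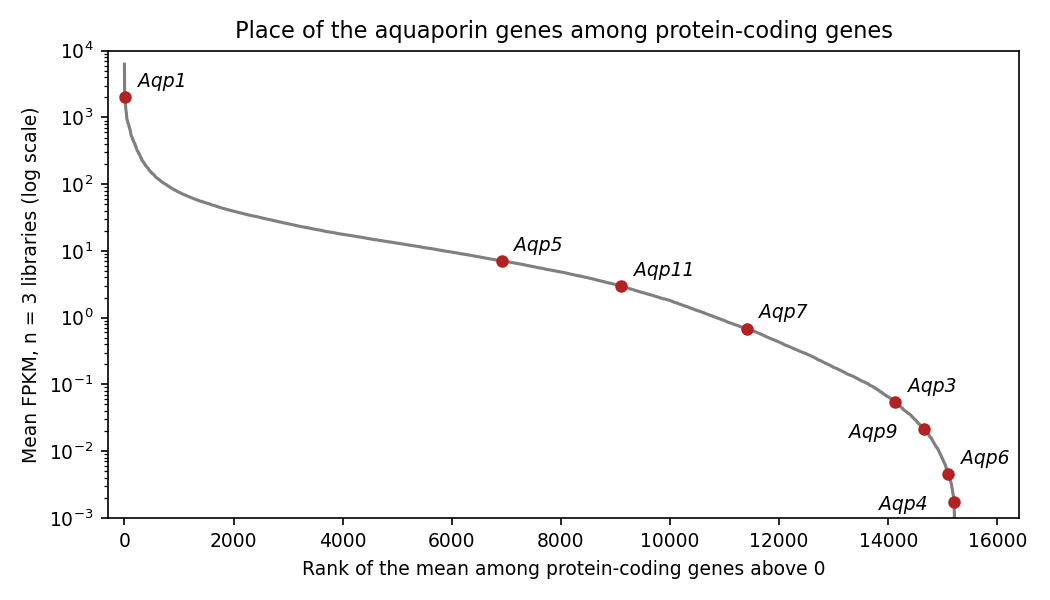
Mean FPKM over the 3 libraries (log axis, values under 0.001 not drawn) against rank for protein-coding genes with a mean above 0. Red points mark aquaporin genes. *Aqp1* sits at rank 12 and *Aqp5* at rank 6918, while *Aqp2* and *Aqp8*, listed at 0, are not drawn.

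The level of *Aqp1* exceeded those of genes that define the endothelium. In every library it was higher than all 10 genes of an endothelial list (*Pecam1*, *Cdh5*, *Kdr*, *Tek*, *Tie1*, *Erg*, *Emcn*, *Cldn5*, *Esam* and *Egfl7*) and all 5 genes of a lung capillary list (*Car4*, *Ednrb*, *Gpihbp1*, *Aplnr* and *Plvap*). The ratio of *Aqp1* to *Pecam1*, the CD31 gene, was 1.79, 1.89 and 1.49 (S38, S44, S52). The ratio to *Cdh5*, the VE-cadherin gene, was 2.30, 2.35 and 1.91 in the same order. *Aqp1* also had the highest mean of 713 protein-coding genes whose symbols begin like those of transporter, pump and channel families, a rule by prefix that was chosen after the values were seen. The next was *Slc9a3r2*, a scaffold for membrane transporters, at 601 ± 86.2 FPKM, followed by *Atp5b*, a subunit of the mitochondrial ATP synthase, at 386 ± 41.3 FPKM (SD, n = 3 for each).

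Other cells that carry *Aqp1* were looked for in the same libraries. All 7 erythroid genes in the table were lowest in S52, and their summed FPKM was 394, 790 and 94.6 (S38, S44, S52). Reads of globin genes can be shared between near-identical copies, and they differed from each other: *Hba-a1* was at 91.0 FPKM in S52 against 147 in S38, and *Hbb-bs* at 0.00319 FPKM against 185. *Slc4a1*, the anion exchanger of the red cell membrane, was at 0.0698 FPKM or less in every library and listed at 0 in S52. All 4 mesothelial genes (*Msln*, *Upk3b*, *Wt1* and *Lrrn4*) were listed at 0 in S52, and their sum was 2.34 FPKM in S38 and 6.14 FPKM in S44. *Aqp1* was at 1734 FPKM in S52, where the mesothelial genes were at 0. S52 also had the fewest genes above 0, at 14423 of 24346, against 16022 in S38 and 16227 in S44. Like *Aqp1*, the erythroid sum was highest in S44 and lowest in S52. So were the mesothelial sum and the endothelial sum, the latter at 6369, 7058 and 6291 FPKM (S38, S44, S52). The part of erythroid or mesothelial RNA in the level of *Aqp1* was not tested. In bulk RNA, a change in the number of cells of a type and a change in RNA per cell cannot be told apart.

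*Aqp5*, the water channel of alveolar and airway epithelium and of secretory glands, was the second member in order and far below *Aqp1*. The gene spans bases 99590782 to 99594829 of chromosome 15 (plus strand), with 4 basic transcripts of 831 to 1797 bases. Its values were 10.5, 7.61 and 3.08 FPKM (S38, S44, S52), with a mean of 7.06 ± 3.74 FPKM (SD, n = 3). It was highest in S38 and lowest in S52, a ratio of 3.41. Taking its longest transcript, these are about 651, 483 and 171 fragments, and the 95% exact Poisson intervals of 9.69 to 11.3, 6.94 to 8.31 and 2.64 to 3.58 FPKM did not overlap. They cover counting error only, and compare libraries and not conditions. The difference of log2(FPKM + 1) between *Aqp1* and *Aqp5* was 8.08 ± 0.64 (SD, n = 3) and had the same sign in 3 of 3 libraries (two-sided exact sign-flip permutation test, p = 0.25, the smallest that 3 libraries allow). The neighbours of *Aqp5* on chromosome 15 are members as well. *Aqp2*, the vasopressin-regulated channel of the kidney collecting duct, ends 6234 bases before *Aqp5* and was listed at 0 in every library. *Aqp6*, an intracellular channel that also conducts anions, starts 6570 bases after it and reached 0.0135 FPKM in S44 alone, which is about 1 fragment.

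*Aqp11*, a channel of the endoplasmic reticulum whose loss in mice leads to cystic kidneys, was the third detected member. The gene spans bases 97724006 to 97738289 of chromosome 7 (minus strand). Its values were 4.06, 3.44 and 1.36 FPKM (S38, S44, S52), with a mean of 2.96 ± 1.41 FPKM (SD, n = 3). The order of the libraries was that of *Aqp5*, with a ratio of 2.98 between the highest and the lowest. The Poisson intervals of S38 and S44, 3.73 to 4.42 and 3.14 to 3.77 FPKM, overlapped, while that of S52, 1.16 to 1.58 FPKM, was separate. *Aqp5* was higher than *Aqp11* in 3 of 3 libraries, by 0.97 ± 0.20 on the log2(FPKM + 1) scale (SD, n = 3, exact sign-flip permutation test, p = 0.25), although their ranges over libraries overlapped.

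*Aqp7*, an aquaglyceroporin of fat and capillary endothelium that passes glycerol, was the highest of the members below the threshold. The gene spans bases 41033074 to 41048139 of chromosome 4 (minus strand). Its values were 1.14, 0.671 and 0.224 FPKM (S38, S44, S52), with a mean of 0.680 ± 0.461 FPKM (SD, n = 3). S38 alone exceeded 1 FPKM. Taking its longest transcript, the 3 values stand for about 103, 62 and 18 fragments. The Poisson interval of S52, 0.132 to 0.352 FPKM, lay below that of S38, 0.938 to 1.39 FPKM. Some windows of its transcripts occur in many other genes, as given above, and reads from these windows cannot be told apart. The mean without S38 was 0.447 FPKM.

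The remaining members were at or near the limit of detection. *Aqp3*, an aquaglyceroporin of basal airway cells and skin, was at 0.0983, 0.0639 and 0 FPKM (S38, S44, S52), which is about 6, 4 and 0 fragments. It lies 44582 bases from *Aqp7* on chromosome 4, on the same strand, and its 0 in S52 allowed up to 0.0552 FPKM. *Aqp9*, an aquaglyceroporin of liver and neutrophils, was at 0.0634 FPKM in S38, about 6 fragments, and listed at 0 in the others, with limits of 0.0311 FPKM in S44 and 0.0353 FPKM in S52. *Aqp4*, the water channel of astrocytes and of airway epithelium, was at 0.00518 FPKM in S44, about 1 fragment, and listed at 0 in the others, with limits of 0.0162 FPKM in S38 and 0.0178 FPKM in S52. These limits cover counting error only. A count of 0, read as at most 3 fragments, allowed up to 0.0627 FPKM of *Aqp2* in S38, 0.0614 in S44 and 0.0709 in S52. For *Aqp8*, a channel of gut, pancreas and liver, these limits were 0.0595, 0.0583 and 0.0672 FPKM. Among these 6 members no neighbours in the order of the mean differed beyond their spread. Of all 9 neighbouring pairs of the family, 3 had ranges that did not overlap: *Aqp1* over *Aqp5*, *Aqp11* over *Aqp7*, and *Aqp7* over *Aqp3*. The lens channel gene *Mip* and *Aqp12*, the family members outside the 10, were listed at 0 in every library.

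*Aqp5*, *Aqp11* and *Aqp7* were ordered alike over the libraries, S38 above S44 above S52, whereas *Aqp1* was highest in S44, except when each library was rescaled to the same FPKM sum, where *Aqp1* took that order too. Of the 3 detected members, 2 (*Aqp5* and *Aqp11*) differed over 2-fold between their extreme libraries, as did 20.1% of all detected genes. The same 2 followed the order S38, S44, S52, as did 26.6% of detected genes, and 8.80% of detected genes met both criteria. The summed FPKM of the 9 members other than *Aqp1* was 15.9, 11.8 and 4.67 (S38, S44, S52), a ratio of 3.40 between S38 and S52. Within that sum the share of *Aqp5* stayed close, at 66.1%, 64.5% and 66.0%, and *Aqp11* took 25.6%, 29.2% and 29.2%. The share of *Aqp7* was 7.22%, 5.68% and 4.79%. The ratio of *Aqp5* to *Aqp11* was 2.58, 2.21 and 2.26 in the same order.

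**Figure D3:**
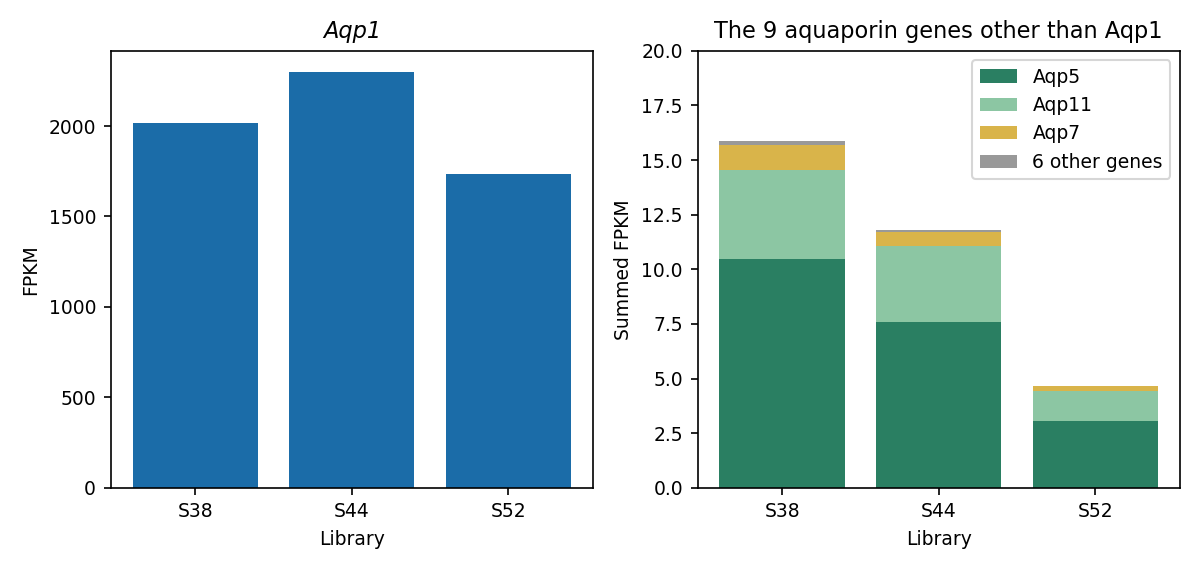
FPKM of *Aqp1* (left) and summed FPKM of the 9 other aquaporin genes (right) in each library, both axes starting at 0. Colours on the right mark *Aqp5*, *Aqp11*, *Aqp7* and the other 6 genes together. The sum on the right is 15.9 in S38 and 4.67 in S52, while *Aqp5* keeps 64.5% to 66.1% of it.

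Genes of other lung cells were set beside *Aqp5*, *Aqp11* and *Aqp7*. On the log2(FPKM + 1) scale the difference of S52 from S38 was -1.49 for *Aqp5*, -1.10 for *Aqp11*, -0.81 for *Aqp7* and -0.22 for *Aqp1*, and the median over all detected genes was -0.083. The value of *Aqp5* was lower than that of all but 3.71% of detected genes. This scale understates changes of low genes. On the FPKM scale the ratio of S38 to S52 was 5.12 for *Aqp7*, 3.41 for *Aqp5* and 2.98 for *Aqp11*. All 8 alveolar type 2 genes were lowest in S52, with a median difference of -2.35, and their summed FPKM was 3935, 3299 and 798 (S38, S44, S52). All 6 airway genes were lowest in S52 too, with sums of 2968, 2519 and 545 FPKM. Platelet genes, 4 of 4 lowest in S52, had a median difference of -5.01. Macrophage and other leukocyte genes were lowest in S52 in 6 of 6, with a median difference of -0.88 and sums of 86.3, 63.7 and 23.5 FPKM. Adipocyte genes, 3 of 5 lowest in S52, had a median difference of -0.78. Alveolar type 1 genes did not share this order: 3 of 8 were lowest in S52, their median difference was 0.11, and their sums were 1114, 1119 and 978 FPKM. These sums rest mostly on *Emp2*, *Hopx* and *Clic5*, with means of 522, 276 and 212 FPKM. Whether these transcripts came from alveolar type 1 cells or from ECs was not tested. *Rtkn2*, *Akap5* and *Pdpn* had means of 1.36, 1.11 and 2.44 FPKM. The product of *Pdpn* was used to exclude cells from the sort. No gene of these 6 lists was at 0 in all libraries, and *Bpifa1*, *Marco*, *Cd3e*, *Plin1* and *Cidec* were listed at 0 in S52. That library had the fewest genes above 0, as given above. Endothelial genes had a median difference of 0.092, and 3 of 10 were lowest in S52. Mural genes had a median difference of 0.56, with 0 of 5 lowest in S52. For fibroblast genes it was -0.36, with 2 of 4 lowest in S52. The share of all detected genes lowest in S52 was not counted. The order S38, S44, S52 was followed by 7 of 8 alveolar type 2, 4 of 6 airway and 4 of 4 platelet genes. It was followed by 3 of 6 leukocyte, 2 of 5 adipocyte, 2 of 8 alveolar type 1 and 1 of 10 endothelial genes. Among all detected genes 26.6% followed it. The part of epithelial, platelet, leukocyte or adipocyte RNA in the levels of *Aqp5*, *Aqp11* and *Aqp7* was not tested.

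**Figure D4:**
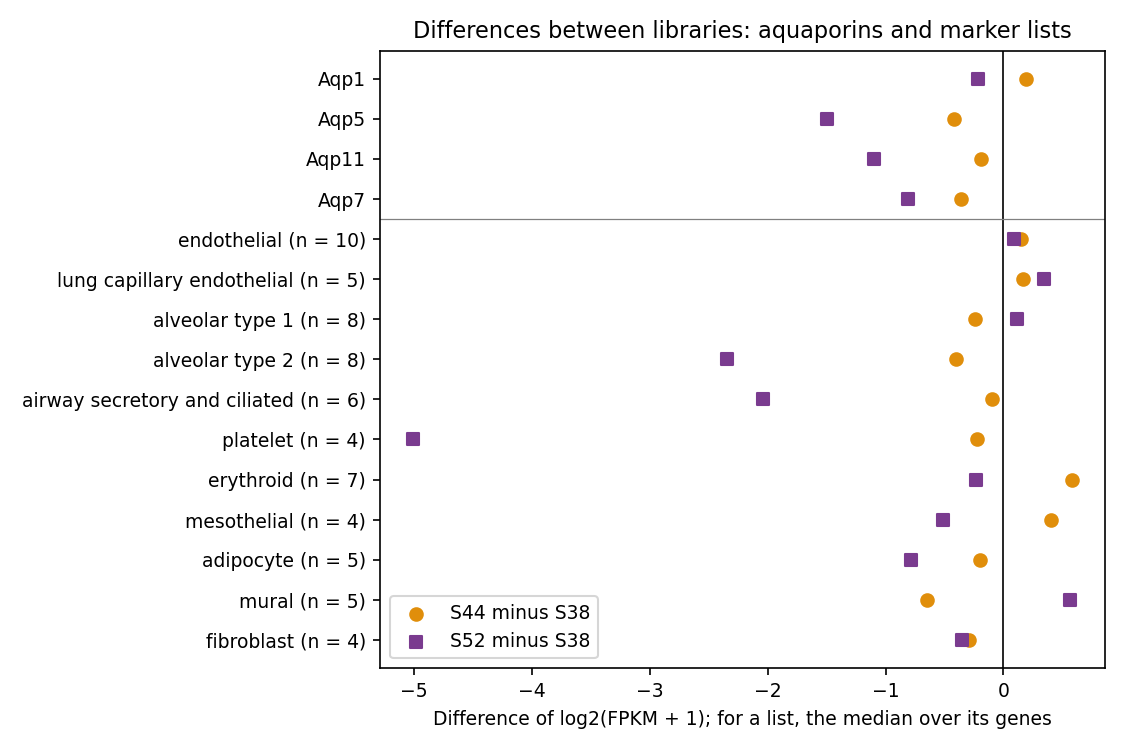
Difference of log2(FPKM + 1) from library S38 for S44 (circles) and S52 (squares), for 4 aquaporin genes and, as the median over the genes of each list, for marker lists of lung cell types. *Aqp5* is at -1.49 in S52, between the alveolar type 2 list at -2.35 and the endothelial list at 0.092.

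Ratios within a library were taken for *Aqp5* and single epithelial genes. Per 1000 FPKM of *Sftpb*, a surfactant protein gene, *Aqp5* was at 53.0 in S38, 54.1 in S44 and 59.1 in S52. This ratio moved less than that to *Sftpc*, at 3.15, 2.66 and 4.68 per 1000, or to the club cell gene *Scgb1a1*, at 3.93, 3.44 and 8.15 per 1000. Against *Ager*, the receptor gene that marks alveolar type 1 cells, the ratio was 243, 227 and 46.6 per 1000 in S38, S44 and S52. Against *Hopx*, another gene of the alveolar type 1 list, it was 35.7, 22.9 and 15.3 per 1000. The genes of that list did not share a direction: the difference of S52 from S38 on the log2(FPKM + 1) scale was 0.60 for *Ager* and -0.55 for *Hopx*. Genes of the alveolar type 2 list were all lower in S52, but by unlike amounts, from -0.61 for *Abca3* to -2.46 for *Lamp3*. A ratio of *Aqp5* to such a gene therefore depends on the gene taken. These ratios were chosen with the levels known and are given without a test.

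Markers beside the aquaglyceroporins were low or mixed, where 54.7% of all protein-coding genes were detected. Basal airway genes, where *Aqp3* is known, had 0 of 4 detected, with sums of 0.538, 0.170 and 0.0557 FPKM in S38, S44 and S52, and *Trp63* was listed at 0 throughout. Adipocyte genes, beside *Aqp7*, had 2 of 5 detected. *Fabp4* and *Lipe*, which capillary ECs are also known to express, were those detected. *Fabp4* was at 153, 70.2 and 24.0 FPKM and *Cidec*, a lipid droplet gene, at 2.06, 0.814 and 0 FPKM, both in the library order of *Aqp7*, while *Adipoq* was at 0.793 FPKM or less, highest in S52, and *Plin1* at 0.0154 FPKM or less. Neutrophil genes, beside *Aqp9*, had 4 of 5 detected, with sums of 38.5, 49.6 and 5.63 FPKM. Of the 5, 3 were lowest in S52, while *Csf3r* and *Cxcr2* were highest there, at 0.549 and 2.19 FPKM. Nephron epithelial genes, beside *Aqp2*, had 0 of 8 detected, and the vasopressin receptor gene *Avpr2* was listed at 0 in every library.

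Genes that act together with aquaporins were counted by list. Beside these counts, 54.7% of protein-coding genes were detected, and 77.7% of genes whose mean reached 0.1 FPKM. For tonicity and cell volume, 13 of 15 genes were detected, with a median of 11.6 FPKM. *Lrrc8c*, a subunit of the volume-regulated anion channel, was at 57.4 ± 4.85 FPKM (SD, n = 3), and *Trpv4*, an osmosensitive cation channel of lung endothelium, at 7.36 ± 1.17 FPKM (SD, n = 3). For glycerol handling, all 7 genes in the table were detected, with a median of 13.0 FPKM. In that list *Gyk*, the glycerol kinase gene, was at 2.87, 2.74 and 0.464 FPKM (S38, S44, S52). *Pnpla2*, the lipase that starts triglyceride breakdown, was at 64.5 ± 0.601 FPKM (SD, n = 3). For the dystrophin complex that anchors *Aqp4* in other tissues, 5 of 7 genes were detected while *Aqp4* itself was not. The urea transporter genes *Slc14a1* and *Slc14a2* were both below 1 FPKM in every library and listed at 0 in S52. In the vasopressin and cAMP list 5 of 7 genes were detected.

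The genes with profiles most like those of the detected members were sought among the 6268 genes whose mean reached 10 FPKM, by the largest difference between centred log2(FPKM + 1) values over the 3 libraries. For *Aqp1* these were *Carkd*, *Nudt16l1* and *Tceb3*, within 0.00848, and 472 genes lay within 0.1. For *Aqp5* they were *Mgst1*, *Creg1* and *Dapk1*, within 0.0467, with 9 genes within 0.1. For *Aqp11* they were *Rbm28*, *Adamts10* and *Lpin2*, within 0.0263, with 48 genes within 0.1. With 3 libraries such likeness is a description of these values only.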

How the data were processed

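The authors deposited 1 table of FPKM values per gene symbol on mm10, with a column for each library. RNA was poly-A selected and read as non-stranded pairs of 51 bp. The submitters' processing notes name bcl2fastq 2.17, FastQC 0.11.5, Trimmomatic 0.36, TopHat2 2.1.0 and Cufflinks 2.2.1. The study's methods describe STAR and HTSeq counts for its own comparisons. The annotation and any scaling behind the FPKM values are not given in the sources used here.

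Values were used as deposited, with Python 3.11.15 and scipy 1.17.1. Differences used log2(FPKM + 1), which understates changes of low genes. Fragments behind a value were estimated from the step in low values among 7077 single-transcript genes. The low values numbered 271, 374 and 169 (S38, S44, S52). Of these, 79.0%, 77.8% and 76.3% lay within a tolerance of 0.15 fragments from a whole number. The step itself was fitted on these same low values. On simulated counts for the 7077 genes the known depths were recovered within 0.0256%. The simulation used the transcript lengths that the estimate assumes. It therefore cannot show error from the annotation or scaling behind the deposited values. Positions are those of GENCODE M21. No exon of a member overlaps another gene there. Neighbouring members were compared by a two-sided exact sign-flip permutation test over libraries. The pairs were set by the order of the means in these same libraries, so the tests are no independent support for that order.

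The named genes are the 10 members, *Mip* and *Aqp12*, genes of the lists a result turns on, and the 3 genes most alike to each detected member. Members and lists were chosen with earlier results of these data known. *Hbb-bt* and *Gk* have no row under these symbols. Lymphatic genes, a list not described in the text, had 3 of 4 detected. Mural and fibroblast genes had 5 of 5 and 4 of 4 detected. Leukocyte genes had 4 of 6 detected. Alternatives were leaving out each library, other thresholds, pseudocounts and rescalings.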

Additional observations from a re-analysis of the deposited data

How the results depend on the processing

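The number of detected members stayed at 3 without each library in turn (3 to 3), under 3 rescalings and with 1 FPKM required in every library. It was 4 at a threshold of 0.1 FPKM, 2 at 3 FPKM and 1 at 10 FPKM, where *Aqp1* remained. With every library brought to a sum of 1000000 FPKM, the rescaling moved the mean of *Aqp1* from 2018 to 1469 and put its libraries in the order S38, S44, S52, at 1749, 1435 and 1222. Protein-coding genes hold 439854 of 1153890 FPKM in S38, 453253 of 1603596 in S44 and 447617 of 1419351 in S52. With median-ratio scaling the mean was 2004, and with equal protein-coding sums, an alternative chosen after seeing the data, it was 2017. Leaving out each library gave 1876 to 2160 FPKM for *Aqp1*, 5.34 to 9.05 FPKM for *Aqp5*, and 99.4% to 99.6% for the share of *Aqp1* in the family. Of 60 means of single members under an alternative, 59 moved by no more than 1 SD. Leaving out 1 of 3 libraries cannot move a mean by more than that. *Aqp2* and *Aqp8*, listed at 0, cannot move at all, so many of these outcomes were fixed in advance. The difference between *Aqp1* and *Aqp5* ranged from 7.76 to 8.40 without each library, was 8.30 with a pseudocount of 0.1 and 8.32 with none, and kept its sign in each. The order S38, S44, S52 held for *Aqp5*, *Aqp11* and *Aqp7* under all 3 rescalings. With genes below 0.1 FPKM left out, 77.7% of genes were detected in place of 48.3%. No pairing of samples between conditions was possible because all libraries belong to 1 group. Members were compared within each library. Depth limits the 6 lowest members, which rest on 6 fragments or fewer in any library, and 3 libraries cannot reach an exact p below 0.25.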

Other observations

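Several genes of the lists differed between the libraries by more than the aquaporins did. *Akr1b3*, the aldose reductase gene that makes sorbitol under osmotic load, ran the other way from *Aqp5*, at 6.94, 23.7 and 48.2 FPKM (S38, S44, S52). *Prkar2b*, a regulatory subunit of protein kinase A, was at 74.2, 48.8 and 1.97 FPKM in the same order. The other volume-regulated anion channel subunits, apart from *Lrrc8e*, varied less: *Lrrc8a* was at 23.8 ± 3.83 FPKM, *Lrrc8b* at 26.0 ± 1.08 FPKM and *Lrrc8d* at 11.6 ± 2.70 FPKM (SD, n = 3 for each), while *Lrrc8e* was at 0.624 FPKM or less in every library. These genes were singled out after their values were seen.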
